A study of Mus musculus with 16 samples.

Results

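Il1rl1 encodes ST2, the receptor for the alarmin cytokine IL-33, and its messenger RNA was followed in 16 mouse tumours on a panel of 770 immune genes. It is 1 gene of those 770, and 1 of the 712 whose mean level reached the limit set by the negative control probes. Il1rl1 was picked out on its own levels across the 4 groups of tumours, so these levels and their differences are described here without a test. The genes of its pathway, its chromosomal neighbours, the genes of cells known to carry it and its relation to other genes follow.

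IL-33 is released by damaged or stressed barrier and stromal cells and binds ST2, which then pairs with the shared co-receptor IL1RAP. The intracellular Toll/IL-1 receptor domains of that pair recruit MyD88 and the IRAK kinases, and the signal passes through TRAF6 to NF-kB and the MAP kinases. Mast cells, basophils, eosinophils, type 2 innate lymphoid cells (ILC2), Th2 cells and a share of tissue regulatory T cells are known to carry ST2. A shorter, secreted form of the protein takes up IL-33 as a decoy and is made by fibroblasts, epithelial cells and some tumour cells.

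The tumours grew from E0771, a mouse breast cancer line, or MC38, a mouse colorectal cancer line, implanted with matrigel in the right shoulder at 500,000 cells per mouse. All 16 mice carried the same treatment label, immunotherapy against PD-1 and CTLA-4, and no untreated tumour was analysed here. Tumours came out once the day 5 post-treatment scan was done and were labelled hypoxic or normoxic, in a study that measured hypoxia by 18F-FMISO PET, a tracer retained in oxygen-poor cells. The groups were E0771 hypoxic (3 tumours, mice 12, 22 and 55), E0771 normoxic (5 tumours, mice 4, 17, 38, 65 and 71), MC38 hypoxic (4 tumours, mice 12, 14, 17 and 25) and MC38 normoxic (4 tumours, mice 4, 7, 10 and 21). The mouse strain, sex, age and clonal state of the lines are not given in the labels. Each line is 1 model of its cancer type.

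Levels are NanoString nCounter normalized counts, in which each tumour was scaled on 20 housekeeping genes. Before scaling, the gene counts summed to between 180274 and 890239 per tumour with a median of 531770. The 5 tumours under 350000 were E0771 hypoxic 12 and 22, E0771 normoxic 65, and MC38 hypoxic 14 and 25. Of the 5 measured epithelial genes, Epcam and Muc1 each stood above the limit of the negative probes (their mean plus 2 SD in that tumour) in 4 of 8 E0771 and 7 of 8 MC38 tumours, Cdh1 (E-cadherin) in 6 and 7, Ceacam1 in 5 and 6 and Msln (mesothelin) in 2 and 8. Ptprc, the pan-leukocyte antigen CD45, stood above it in all 16. The values come from whole tumours, so fewer cells of a type and less RNA per cell cannot be told apart, nor can tumour-cell and host-cell Il1rl1.

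The mouse Il1rl1 gene (gene ID 17082) lies on the plus strand of chromosome 1 between Il1rl2 and Il18r1, in a run of IL-1 receptor family genes whose order is Il1r2, Il1r1, Il1rl2, Il1rl1, Il18r1 and Il18rap. RefSeq (GRCm38.p6) lists 6 transcripts, 3 curated and 3 predicted, and 2 start sites that lie 10059 bases apart. Use of separate promoters by different cell types is known for this gene, the upstream one in mast and other haematopoietic cells and the downstream one in fibroblasts. The 250 bases before each start are printed because the members of the cell lists below include cells of both kinds. Capitals mark matches to AGATAA or AGATAG, to TGATAA or TGATAG, which are sites recognised by GATA factors, or on the other strand to their reverse complements: TTATCT for the first, CTATCT for the second, TTATCA for the third and CTATCA for the last.
Il1rl1 start 1: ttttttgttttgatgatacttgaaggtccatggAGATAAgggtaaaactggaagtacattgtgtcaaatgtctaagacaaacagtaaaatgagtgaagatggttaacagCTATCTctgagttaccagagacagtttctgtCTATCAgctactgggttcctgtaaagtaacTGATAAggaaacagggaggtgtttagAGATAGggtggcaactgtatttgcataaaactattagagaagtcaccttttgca
Il1rl1 start 2: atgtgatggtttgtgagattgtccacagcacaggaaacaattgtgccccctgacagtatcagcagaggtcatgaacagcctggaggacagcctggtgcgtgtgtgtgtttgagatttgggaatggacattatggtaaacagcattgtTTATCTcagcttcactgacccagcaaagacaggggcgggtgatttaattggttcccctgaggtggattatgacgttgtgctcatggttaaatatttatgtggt
The first window, chr1:40429320-40429569 on the plus strand, lies before the upstream start at 40429570 and holds 5 matches, at bases -217, -141, -110, -80 and -54 from the start. The second, chr1:40439379-40439628, lies before the downstream start at 40439629 and holds 1 match at base -103. No match overlaps another. Of 32851 promoter windows of this length in the same RefSeq table, 26.5% hold at least 1 match, and 11 windows, 0.0335%, hold 5 or more. A match is a string of letters and not a measured binding site. The 1 Il1rl1 value per tumour does not separate transcripts of the 2 starts, nor the membrane from the secreted form.

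Il1rl1 was low in every E0771 tumour and high in every MC38 tumour. Hypoxic E0771 tumours held 47.9, 243 and 55.5 normalized counts in mice 12, 22 and 55. Normoxic E0771 tumours held 124, 44.5, 246, 181 and 78.8 in mice 4, 17, 38, 65 and 71. Mouse 22 stood high among the hypoxic tumours, and both E0771 groups covered nearly the same range. Hypoxic MC38 tumours held 3891, 3055, 4583 and 2894 normalized counts in mice 12, 14, 17 and 25. Normoxic MC38 tumours held 1429, 636, 5404 and 2505 in mice 4, 7, 10 and 21. The normoxic MC38 group therefore held both the highest and the lowest Il1rl1 of that line, and all 4 hypoxic values lay inside its range.

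**Figure D1:**
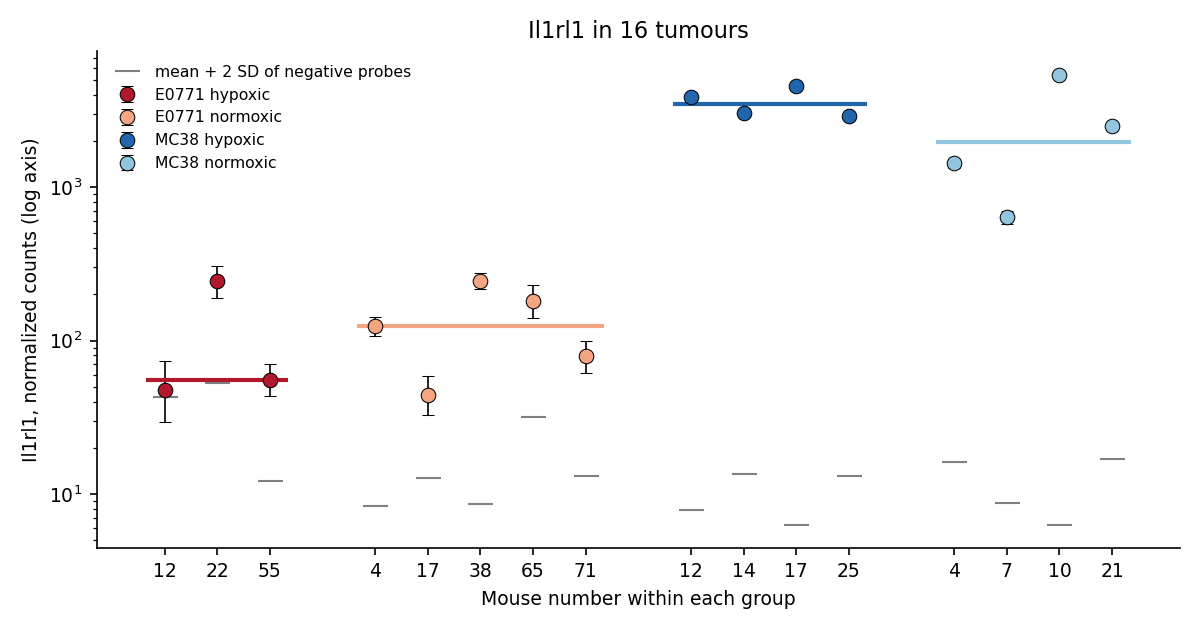
Il1rl1 in each of the 16 tumours, in normalized counts on a log axis, with the mouse number on the x axis. Points are tumours, vertical bars 95% Poisson intervals of the count (counting error only), thick lines group medians and grey ticks the mean plus 2 SD of the 8 negative control probes. The lowest MC38 tumour, at 636, lies above the highest E0771 tumour, at 246.

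As means, Il1rl1 stood at 115 ± 110 in hypoxic E0771 tumours (SD, n = 3), 135 ± 80.4 in normoxic E0771 tumours (SD, n = 5), 3606 ± 784 in hypoxic MC38 tumours (SD, n = 4) and 2493 ± 2086 in normoxic MC38 tumours (SD, n = 4). The highest tumour exceeded the lowest 5.07-fold, 5.53-fold, 1.58-fold and 8.49-fold in these groups in that order. The hypoxic MC38 group was thus the tightest, with an SD of 0.31 on the log2 scale against 1.30 in normoxic MC38 tumours. The medians were 55.5 in hypoxic and 124 in normoxic E0771 tumours, and 3473 in hypoxic and 1967 in normoxic MC38 tumours. Ranked by median, hypoxic MC38 stood highest and hypoxic E0771 lowest, and the step between the lines was the only one where neighbouring groups did not overlap.

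Il1rl1 was near the detection limit in 1 tumour. E0771 hypoxic 12 gave about 21 counts before scaling, and the 95% Poisson interval of its normalized value, 29.6 to 73.2, includes the negative probe limit of 43.0 there. The other E0771 tumours stood 6.76-fold to 55.2-fold above the mean of their negative probes, and MC38 tumours 117-fold to 2006-fold. As a share of all gene counts, which uses no housekeeping scaling, Il1rl1 took between 0.00956% and 0.0383% in E0771 tumours and between 0.0988% and 1.07% in MC38 tumours. The 4 hypoxic MC38 tumours held 0.673% to 0.899%, whereas the normoxic ones held 0.105%, 0.0988%, 1.07% and 0.394% in mice 4, 7, 10 and 21, so that on this scale too mouse 10 stood above the hypoxic tumours and the others below them.

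The first comparison set hypoxic against normoxic tumours of the same line. In E0771 the Il1rl1 difference, hypoxic minus normoxic, was -0.40 ± 0.66 (SE) on the log2 scale of normalized count plus 1, less than its own SE. It was 0.03 without E0771 hypoxic 12 and -1.13 without E0771 hypoxic 22, so its direction rested on single tumours. In MC38 the difference was 0.92 ± 0.64, a 1.89-fold higher mean on that scale in hypoxic tumours. It ranged from 0.40 without MC38 normoxic 7 to 1.43 without MC38 normoxic 10, and the groups overlapped. The 2 hypoxia differences differed by -1.31 ± 0.92, E0771 minus MC38.

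The background of these differences was uneven between the lines. The limma fit with Benjamini-Hochberg adjustment at 0.05 called 0% of the 712 genes higher and 0% lower in hypoxic E0771 tumours, with 45 genes at an unadjusted p under 0.05. In hypoxic MC38 tumours it called 0.562% higher and 48% lower, and the median gene lay at -1.27. The split depends on the scaling: 4 higher and 342 lower genes became 75 and 115 when each tumour was centred on its median gene, a step that moved the median by 1.12, and 0 and 213 when scaled on the positive control probes. Positive-control scaling moved the median of the E0771 comparison by -1.15 and called 0 genes higher and 127 lower there. For the difference between the 2 hypoxia effects, 0% were called higher and 0% lower by limma, with 133 at an unadjusted p under 0.05. Against this background the Il1rl1 value of 0.92 in MC38 was the 10th highest of 712, above 98.6% of the genes. The 9 genes above it were Msln at 1.65, 7 interferon-induced genes (Rsad2, Cxcl11, Ifi44, Cxcl10, Oasl1, Isg15 and Ifi35) and C1qbp.

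The second comparison set E0771 against MC38 at the same oxygen label. Il1rl1 differed by -5.34 ± 0.69 (SE, log2) in hypoxic tumours, 40.4-fold lower in E0771, and by -4.02 ± 0.61 in normoxic tumours, 16.3-fold lower in E0771. Both were the lowest values of all 712 genes. The nearest others in hypoxic tumours were Msln at -5.21, Spp1 (osteopontin) at -4.01 and Cxcl10 at -3.40, and in normoxic tumours Ifna1 at -3.92, Chil3 at -3.57 and Msln at -3.48. Il1rl1 stayed lowest under centring and positive-control scaling. Without the 5 tumours of fewest counts it was also lowest, at -6.22 in hypoxic and -4.19 in normoxic tumours. Only E0771 hypoxic 55 remained of its group in that hypoxic comparison. It came 2nd lowest in hypoxic and 4th lowest in normoxic tumours once the negative-probe mean was subtracted, and 11th lowest in normoxic tumours without MC38 normoxic 10. It ranked 1st or 2nd lowest in the other fits that left out 1 tumour. With 1 line per cancer type, line and cancer type cannot be told apart.

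**Figure D2:**
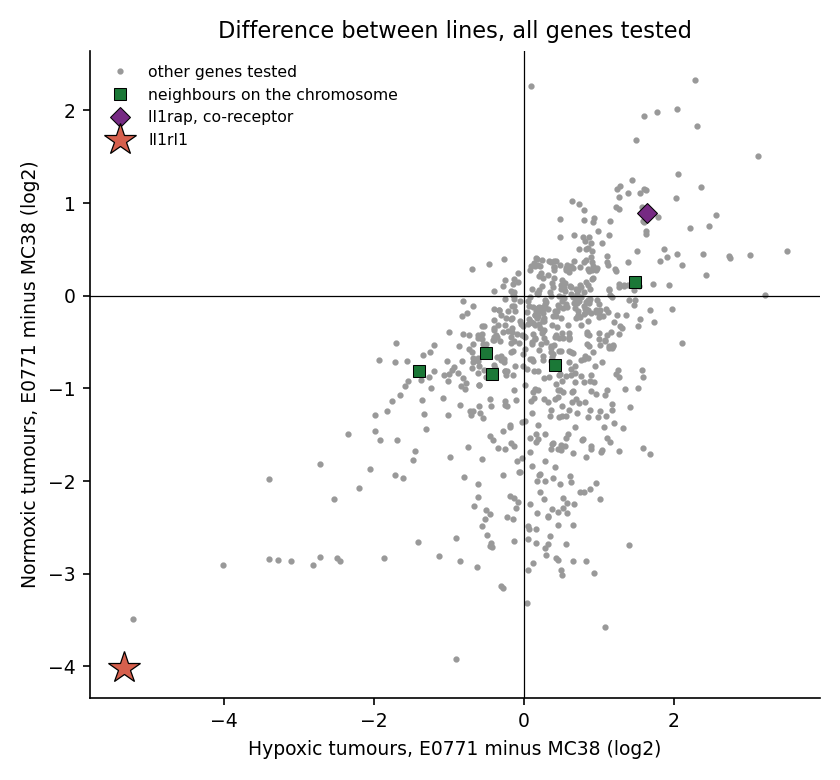
Log2 difference between the lines, E0771 minus MC38, for each of the 712 genes tested, in hypoxic tumours (x axis) and normoxic tumours (y axis). The star is Il1rl1 at -5.34 and -4.02, squares are the other 5 receptor genes of its chromosomal run and the diamond is Il1rap, at 1.64 and 0.89.

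Il1rap, the co-receptor that ST2 needs to signal, did not follow Il1rl1. It held 415, 708 and 1168 normalized counts in hypoxic E0771 tumours (mice 12, 22 and 55) and 1789, 1349, 565, 316 and 798 in normoxic ones (mice 4, 17, 38, 65 and 71). Hypoxic MC38 tumours held 400, 122, 302 and 168 (mice 12, 14, 17 and 25), and normoxic ones 550, 487, 306 and 438 (mice 4, 7, 10 and 21). Every hypoxic E0771 tumour lay above every hypoxic MC38 tumour, whereas the normoxic groups overlapped. The line difference was 1.64 in hypoxic tumours (limma adjusted p = 0.0804) and 0.89 in normoxic tumours (adjusted p = 0.239), neither past the threshold, with signs opposite to those of Il1rl1.

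Of the 35 listed IL-33 pathway genes, the cytokine Il33 was not analysed here, and 33 besides Il1rl1 were tested. Between the lines in hypoxic tumours, limma called 3 of the 33 higher in E0771 and 0 lower, against 4.49% of all genes higher and 3.37% lower, and the list's median was 0.26 against 0.37 over all genes. The 3 were Irak2 at 2.76 (adjusted p = 0.00285) and Irak1 at 1.63 (adjusted p = 0.00304), the kinases that bind MyD88 complexes, and Tollip at 1.27 (adjusted p = 0.0377), an adapter that restrains them. Irak1 held 440, 598 and 552 normalized counts in hypoxic E0771 tumours, against 161, 170, 190 and 157 in hypoxic MC38 tumours, with no overlap. Scaled on the positive control probes, which moved the median gene by -1.31, the list gave 0 higher and 1 lower gene, and all genes 0 higher and 46 lower in place of 32 and 24. Centred on the median, the list gave 1 higher gene, Irak2 (adjusted p = 0.000221), and 2 lower genes, Mapk8 and Map3k5, and all genes gave 22 higher and 38 lower. Irak1 lost its call there (adjusted p = 0.0513) and Tollip too (adjusted p = 0.191). Tollip was called in 6 of the 16 fits that left out 1 tumour, and Irak1 and Irak2 in all 16. Leaving out the 5 tumours of fewest counts kept only E0771 hypoxic 55 of its group, so that fit cannot test these calls.

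In normoxic tumours 1 of the 33 pathway genes was called between the lines, Mapk8 (the kinase JNK1), lower in E0771 at -0.92 (adjusted p = 0.0492). This call was lost in 14 of the 16 fits that left out 1 tumour. Over all genes 1.4% were higher and 14.3% lower in E0771, 10 and 102 genes, which became 23 and 88 under centring and 1 and 75 under positive-control scaling. The median was -0.19 for the pathway list and -0.50 for all genes. Myd88, the adapter of the receptor pair, differed by -0.67 in hypoxic and -0.67 in normoxic tumours without passing (adjusted p = 0.298 and 0.144). Irak4, the kinase that binds it first, differed by -0.35 and -0.45, also without passing (adjusted p = 0.654 and 0.369).

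Within MC38, 5 of the 33 pathway genes fell in hypoxic tumours and 0 rose. They were Irak3 at -2.47 (limma adjusted p = 0.00812), a kinase-dead inhibitor of IRAK signalling, Ikbke at -1.65 (adjusted p = 0.0160), Irak2 at -1.42 (adjusted p = 0.0213), Tollip at -0.90 (adjusted p = 0.0355) and Tab1 at -0.85 (adjusted p = 0.0305), an activator of the kinase TAK1. Their share, 15.2%, was below the 48% of all genes, and the list's median of -0.43 lay above the -1.27 of all genes. Centring each tumour on its median gene gave 7 higher and 1 lower pathway gene, Irak3 at -1.35 (adjusted p = 0.0277), against 75 higher and 115 lower over all genes. Centring turned Tollip to 0.22 and Tab1 to 0.27. Positive-control scaling left 1 call, against 213 lower over all genes. Leaving out the 5 tumours of fewest counts left 0 calls over all genes and so 0 in the list. The count was 3 without MC38 hypoxic 14, 1 without MC38 hypoxic 25, MC38 normoxic 4 or MC38 normoxic 7, and 9 without MC38 normoxic 10.

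In E0771, 0 of the 33 pathway genes were called between hypoxic and normoxic tumours. Under positive-control scaling 3 were called lower, against 127 over all genes. Under housekeeping scaling Irak2 had the highest difference in E0771 at 0.93 and Irak3 the lowest at -1.31, both with limma adjusted p = 0.620. The difference of hypoxia effects between the lines passed for 0 of the 33. Once MC38 normoxic 10 was left out, 4 of them were called higher, against 132 of all 712 genes. For Irak2, whose values in the lines had opposite signs, that difference was 2.35 (adjusted p = 0.205). Traf6, the ubiquitin ligase downstream of the IRAK kinases, differed by -0.18 in E0771 and -0.54 in MC38, neither past the threshold. Sigirr, an inhibitory receptor of this family known to restrain ST2, differed by 0.63 in E0771 and 0.27 in MC38 without passing.

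**Figure D3:**
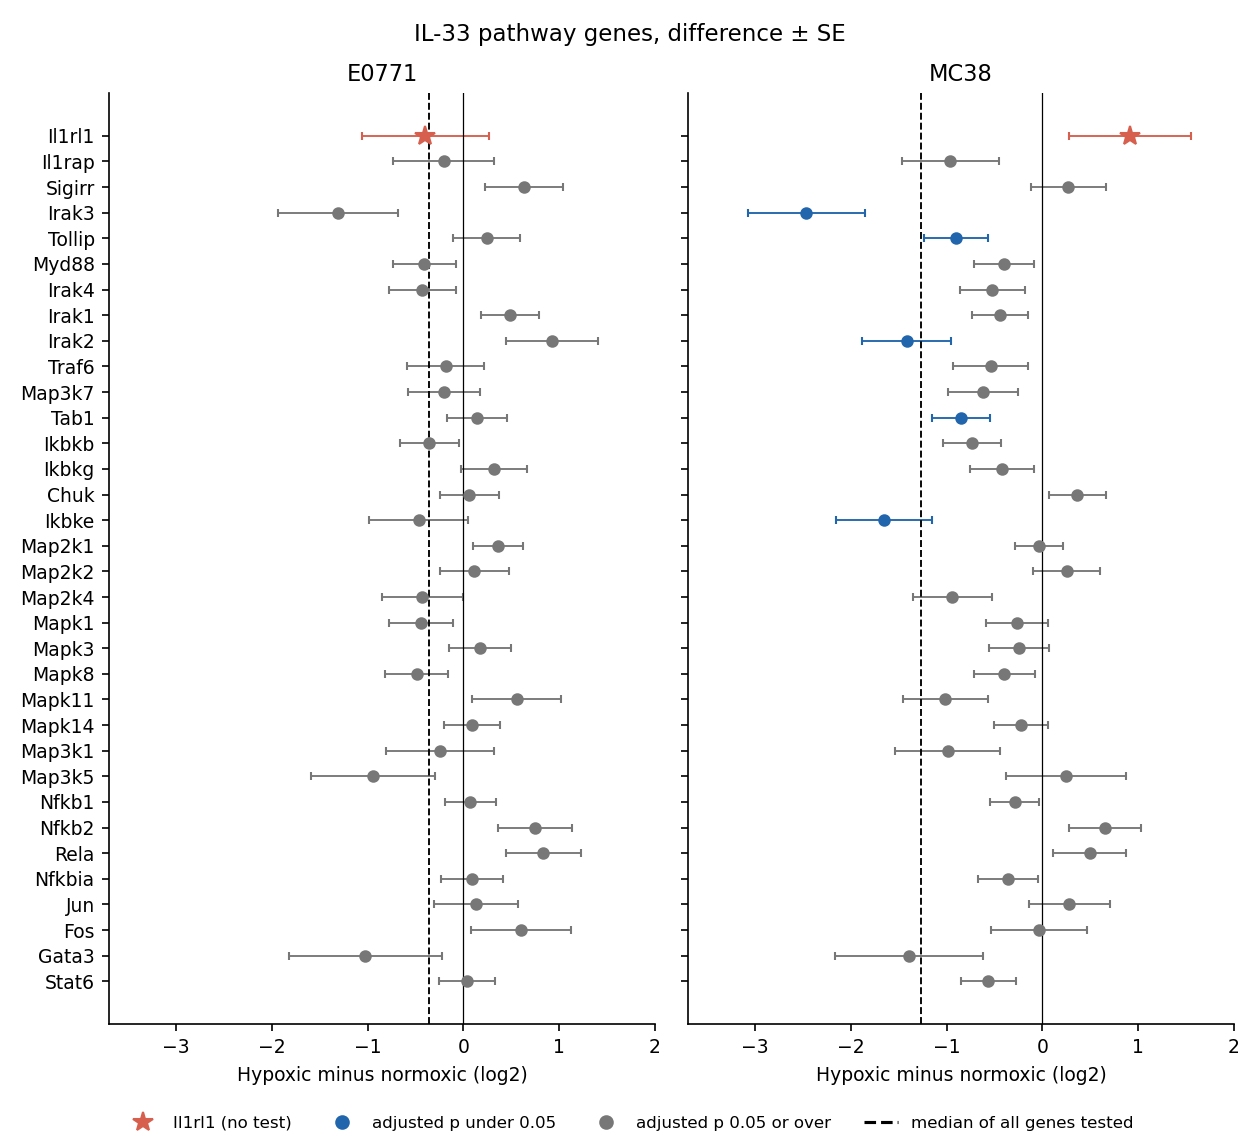
Log2 difference, hypoxic minus normoxic, of Il1rl1 and the 33 tested IL-33 pathway genes in E0771 (left) and MC38 (right). Points are differences with their SE, blue where the limma adjusted p is under 0.05, the star is Il1rl1 without a test, and the dashed line is the median of all 712 genes, at -0.36 and -1.27. In MC38 Il1rl1 has the highest value drawn.

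The neighbours of Il1rl1 on chromosome 1 showed no line difference of that size. Il1r2, the decoy receptor for IL-1, differed between E0771 and MC38 by 0.42 in hypoxic and -0.75 in normoxic tumours, and Il1r1, the signalling receptor for IL-1, by -0.42 and -0.85. Il1rl2, the IL-36 receptor, differed by -0.50 and -0.62. Il18r1 and Il18rap, the paired chains of the IL-18 receptor, differed by 1.49 and 0.15 and by -1.40 and -0.81. None of these passed in the limma fit. Il18r1 held 38.8, 190 and 87.9 normalized counts in hypoxic E0771 tumours, against 36.8, 23.2, 65.1 and 14.9 in hypoxic MC38 tumours, and the groups overlapped.

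Of the neighbours, Il18r1, Il1r1 and Il1r2 were called lower in hypoxic MC38 tumours, where the Il1rl1 mean was higher. Il1rl2 and Il18rap were not called. Of 11 tested IL-1 receptor family genes, of 20 listed and 12 measured, 5 fell in hypoxic MC38 tumours: Il1a at -2.39 (limma adjusted p = 0.0177), Il18r1 at -2.08 (adjusted p = 0.0234), Il1r1 at -1.99 (adjusted p = 0.0274), Il1r2 at -1.84 (adjusted p = 0.0245) and Il18 at -1.54 (adjusted p = 0.0305). Il1r1 held 154, 129, 154 and 67.1 normalized counts in hypoxic MC38 tumours, against 1544, 497, 188 and 367 in normoxic ones, all 4 below the lowest normoxic tumour. These 5 of 11 are 45.5%, against the 48% of all genes called lower, and the list's median was -1.54 against -1.27. All 5 calls were lost under centring, without the 5 tumours of fewest counts, and without MC38 hypoxic 25, MC38 normoxic 4 or MC38 normoxic 7. 2 calls were left without MC38 hypoxic 14 and under positive-control scaling, and 3 without MC38 normoxic 21. In E0771, 0 of the 11 were called, and 4 were called lower under positive-control scaling, against 127 over all genes.

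Mast cells are among the cells with the most ST2, and 5 of 12 listed mast cell genes were tested. Of these, Tpsab1 (tryptase) and Ms4a2 (the beta chain of the high-affinity IgE receptor) reached the mean of 24.0 only through normoxic MC38 tumours. Ms4a2 was high there in mouse 4 only, at 170 normalized counts, against 11.6, 12.9 and 10.7 in mice 7, 10 and 21. The lower mean of both genes over the other tumours followed from that choice, so they are not counted. The other 3 fell in hypoxic MC38 tumours, where 48% of all genes were called lower: Fcer1a (the IgE-binding chain of the same receptor, also found on basophils) at -2.49 (limma adjusted p = 0.0213), Cma1 (chymase) at -2.41 (adjusted p = 0.0280) and Kit (the stem cell factor receptor) at -1.50 (adjusted p = 0.0486). Fcer1a held 84.2, 41.3, 62.4 and 12.4 normalized counts in hypoxic MC38 tumours, against 922, 249, 71.8 and 180 in normoxic ones, where mouse 10, the tumour of highest Il1rl1, was the lowest, and the groups overlapped. The summed level of all 5 genes ran from 63.3 to 340 in hypoxic and from 261 to 3175 in normoxic MC38 tumours. Centred on each tumour's median gene, 0 of the 3 were called, against 75 higher and 115 lower over all genes. The count was 1 without MC38 hypoxic 14 and 0 without MC38 hypoxic 25, MC38 normoxic 4, MC38 normoxic 7 or the 5 tumours of fewest counts. Their part in the Il1rl1 values was not tested.

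The 5 mast cell genes, here with Tpsab1 and Ms4a2, had no line difference as large as that of Il1rl1. They ran from 0.36 to 2.12 in hypoxic and from -1.55 to -0.51 in normoxic tumours. Tpsab1 set the lower hypoxic end and Ms4a2 the upper end in both. These genes passed the filter only through normoxic MC38 tumours, so their values, and the medians below, are not independent of that choice. Ms4a2 stood above the negative-probe limit in 4 of 8 E0771 and 4 of 8 MC38 tumours, so its 2.12 rests in part on values near the floor. None of the 5 was called. Over all genes 4.49% were higher and 3.37% lower in hypoxic, and 1.4% and 14.3% in normoxic tumours. The list median was 0.78 in hypoxic and -0.85 in normoxic tumours, against 0.37 and -0.50 over all genes. The summed level of the 5 genes ran from 144 to 1165 in hypoxic and from 160 to 734 in normoxic E0771 tumours, which overlapped both MC38 ranges. Fcer1a stood above the negative-probe limit in 7 of 8 E0771 and 7 of 8 MC38 tumours, and Cma1 in all 16.

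Genes of other cells known to carry ST2 were read the same way, leaving out those that reached the mean of 24.0 through 1 group alone, a choice made after the values were seen. Of 3 tested eosinophil genes this left Ccr3 (the eotaxin receptor), which fell in hypoxic MC38 tumours at -3.65 (limma adjusted p = 0.00732) and lost its call without the 5 tumours of fewest counts. Of 11 ILC2 and Th2 genes it left 5, of which 2 fell, Il7r (the IL-7 receptor) at -2.54 (adjusted p = 0.0156) and Klrg1 (an inhibitory lectin receptor) at -1.48 (adjusted p = 0.0335), with a median of -1.48 against -1.27 over all genes. That count was 0 without MC38 hypoxic 25, MC38 normoxic 4 or the 5 tumours of fewest counts, 1 without MC38 hypoxic 12, MC38 normoxic 7 or MC38 normoxic 21, 1 under centring, positive-control scaling or background subtraction, and 5 in a fit of the 2 groups alone. Of 11 regulatory T cell genes it left 7, of which 6 fell, with a median of -2.15. Tnfrsf18 (the receptor GITR) was at -2.59 (adjusted p = 0.00732) and Tnfrsf4 (the receptor OX40) at -2.31 (adjusted p = 0.00854). That count was 2 without MC38 hypoxic 25 or MC38 normoxic 4, 3 without MC38 normoxic 7, 2 under centring, 4 under positive-control scaling and 0 without the 5 tumours of fewest counts. All these counts stand beside the 48% of all genes called lower. Ptprc differed by -1.78 in the same comparison without passing (adjusted p = 0.0576).

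Apart from Foxp3, a regulatory T cell gene, the genes left out had a low mean outside normoxic MC38 tumours, which follows from that choice. For these genes, Prg2 and Il17rb among them, the comparison of hypoxic with normoxic MC38 tumours is not independent of it. Foxp3 passed through normoxic E0771 tumours alone, with a mean of 42.6 normalized counts there and 24.7 in normoxic MC38 tumours. Prg2 (eosinophil major basic protein) held 12.3, 4.96, 15.8 and 1.24 normalized counts in hypoxic MC38 tumours, against 186, 179, 30.2 and 122 in normoxic ones, and stood above the negative-probe limit in 3 of 8 E0771 and 6 of 8 MC38 tumours. Il17rb, an IL-25 receptor chain, stood above it in 2 of 8 and 5 of 8. Between the lines, Ccr3 differed by 0.38 in hypoxic and -2.30 in normoxic tumours, neither past the threshold (limma adjusted p = 0.839 and 0.0547).

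IL-33 acting on these cells is known to induce type 2 cytokines and chemokines, and 21 of 25 such mediators were tested. Il4, Il9, Il10, Il13 and Csf2 reached the mean of 24.0 only through normoxic MC38 tumours and are left out of the counts. Of the other 16, 9 fell in hypoxic MC38 tumours and 0 rose, against 48% of all genes lower, with a median of -1.75 against -1.27. Ccl24 (eotaxin-2) was at -5.53, Chil3 (the macrophage lectin Ym1) at -5.22 and Arg1 (arginase 1) at -4.04, while Cxcl1, a neutrophil chemokine, had the highest difference at 0.69 (limma adjusted p = 0.331). Under centring 1 was higher and 6 lower, against 75 and 115 over all genes, and without the 5 tumours of fewest counts 0 were called. The summed level of all 23 measured mediators had a median of 16286 in normoxic MC38 tumours, but 134372 in the highest of them. In hypoxic MC38 tumours the sum ran from 7950 to 12867. In E0771, 0 genes of the mediator and cell lists were called between hypoxic and normoxic tumours. Positive-control scaling called 5 mediators, 1 eosinophil, 2 ILC2 and Th2 and 4 regulatory T cell genes lower there, among the genes counted above. Over all genes it called 127 lower.

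Between the lines in normoxic tumours, 6 of these 16 mediators were lower in E0771 and 0 higher, against 14.3% of all genes lower and 1.4% higher. Among them Cxcl1 was at -2.85 (limma adjusted p = 0.00544) and Il6 at -2.87 (adjusted p = 0.00974). The count was 2 without E0771 normoxic 17 or MC38 normoxic 7 and 3 without E0771 normoxic 71, MC38 normoxic 4 or MC38 normoxic 21. With the 5 shallowest tumours left out it was 2, and in a fit of the 2 groups alone 3. In hypoxic tumours 1 of the 16 was called, Cxcl1, lower in E0771 at -3.27 (adjusted p = 0.00325). Leaving out those 5 tumours kept only E0771 hypoxic 55 of its group, so that fit cannot test the call. Cxcl1 held 18.2, 148 and 33.9 normalized counts in hypoxic E0771 tumours, against 380, 623, 376 and 450 in hypoxic MC38 tumours, with no overlap.

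To find genes whose level followed Il1rl1 from tumour to tumour, each log2 value was taken relative to the mean of its line and correlated over the 16 tumours. These correlations describe 16 tumours that share 1 scaling on housekeeping genes and differ in depth, and they carry no p-value. The oxygen group was not taken out, so they also hold the difference between hypoxic and normoxic tumours. Slc7a11, the cystine-glutamate exchanger xCT, was most like Il1rl1 with r = 0.77 (rho 0.78). It held 29.7, 77.4 and 28.5 normalized counts in hypoxic and 25.9, 17.3, 83.2, 55.8 and 75.6 in normoxic E0771 tumours. Hypoxic MC38 tumours held 152, 137, 264 and 128, and normoxic ones 65.9, 92.5, 232 and 158. Mice 22 and 38 were highest in E0771 for both genes, and in MC38 mice 10 and 17 were highest and mice 4 and 7 lowest for both. The r was 0.75 within E0771 and 0.81 within MC38 (8 tumours each), and 0.74 to 0.85 with any 1 tumour left out. It was 0.52 in E0771 without mice 22 and 38, and 0.80 in MC38 without mice 4 and 7.

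Next in likeness were Chuk, encoding the kinase IKK-alpha, at 0.65, Map3k5, encoding the stress kinase ASK1, at 0.64, Ptgs2 (cyclooxygenase-2) at 0.63, Cxcl1 at 0.61, the immediate-early factor Egr1 at 0.59, the VEGF receptor Kdr at 0.57 and Eif2b4 at 0.53. Over all 711 other genes the median was -0.08, and 5% to 95% of them lay between -0.46 and 0.38. Eif2b4 is among the 20 genes that set the scaling. Slc7a11, Ptgs2, Map3k5 and Cxcl1 reached 0.6 in both lines. Ptgs2 kept 0.73 in MC38 without mice 4 and 7, whereas Map3k5 turned to -0.44 and Cxcl1 to -0.55 there, so their likeness in MC38 rested on those tumours. In the same MC38 tumours Chuk was at 0.51, Kdr at 0.30, Egr1 at 0.02 and Eif2b4 at -0.31. Within E0771, centred on each tumour's median gene, Egr1 was at 0.48, Chuk at 0.058, Eif2b4 at 0.055 and Kdr at -0.36.

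At the other end stood Sap130 at -0.77, also among the scaling genes, Cd276 (the checkpoint ligand B7-H3) at -0.77 and Csf1 (macrophage colony-stimulating factor) at -0.74. Scaled on the positive control probes these 3 were at 0.43, 0.39 and 0.32, but there 708 of the 711 genes were positive with a median of 0.45, so they lay at or below the median gene. Centred on each tumour's median gene they were 0.08, -0.04 and 0.08. Slc7a11 was at 0.89 and 0.86 under these 2 scalings, against medians of 0.45 and -0.10 over all genes. Centred, its r was 0.44 within E0771 and 0.94 within MC38.

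Most genes related to Il1rl1 in opposite ways in the 2 lines. Each r joins the hypoxic and normoxic tumours of a line, so it also holds the difference between them. That difference was 0.92 for Il1rl1 and -1.27 for the median gene in MC38, and -0.40 and -0.36 in E0771. Its part in the r values was not tested. Of 711 genes, 531 had a positive r in E0771 and a negative one in MC38, 47 were positive in both, 62 negative in E0771 and positive in MC38, and 71 negative in both. The median r was 0.56 in E0771 and -0.56 in MC38. It depended on scaling and on single tumours: scaled on the positive control probes it was 0.79 in E0771 and 0.10 in MC38, under centring 0.09 and -0.26, and in the 5 E0771 and 6 MC38 tumours of at least 350000 counts 0.53 and -0.69. Without the 2 tumours farthest from the median it was 0.48 in E0771 (mice 22 and 38 left out) and -0.06 in MC38 (mice 4 and 7 left out).

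**Figure D4:**
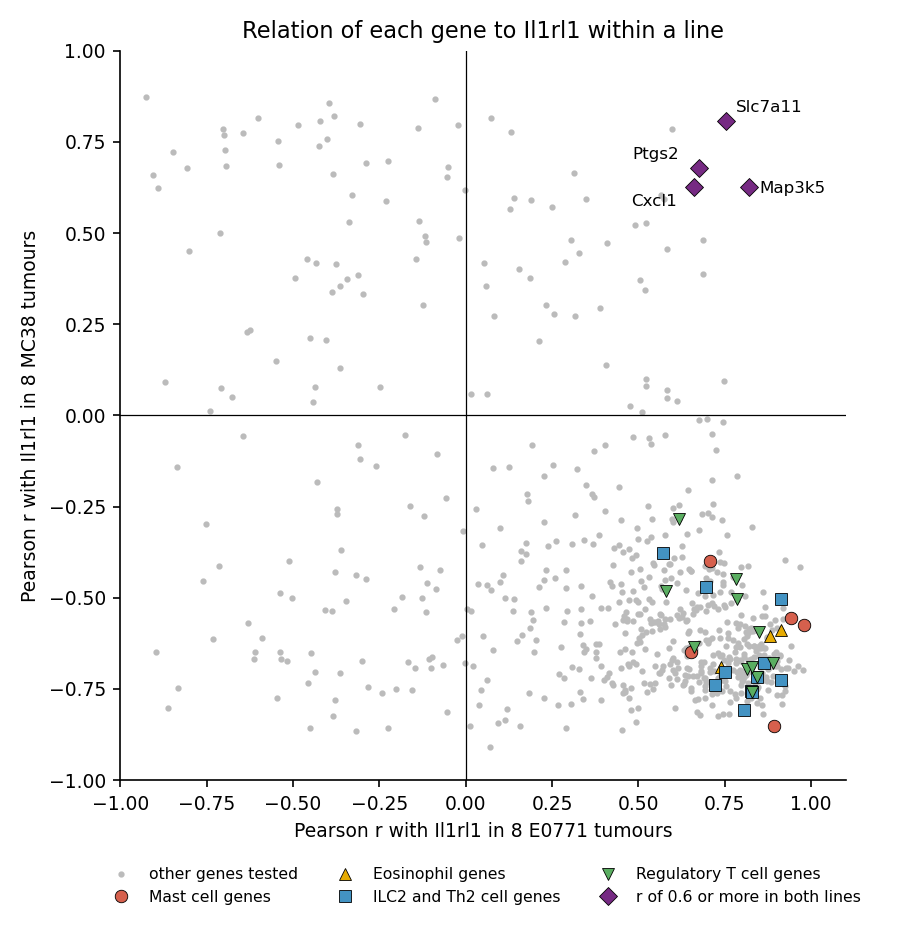
Pearson r of each of 711 genes with Il1rl1 across 8 E0771 tumours (x axis) and 8 MC38 tumours (y axis), on log2 normalized counts. Coloured symbols are genes of 4 cell types known to carry ST2 and diamonds the 4 genes at 0.6 or more in both lines; 531 genes lie in the lower right part of the plot.

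In E0771 the genes closest to Il1rl1 were Fcer1a at r = 0.98, Egfr (the EGF receptor) at 0.98 and Ctsl (cathepsin L) at 0.97, each over 8 tumours. Fcer1a held 36.5, 250 and 38.6 normalized counts in hypoxic and 98.5, 25.4, 157, 122 and 62.8 in normoxic E0771 tumours, the order of Il1rl1 in the same mice except that the top pair, mice 22 and 38, changed places. Its r stayed at 0.98 with any 1 tumour left out. All 5 mast cell genes were positive in E0771, with a median r of 0.89 against 0.56 over all genes, 0.72 against 0.09 under centring, and 0.84 against 0.53 in the 5 deeper tumours. In MC38 the same 5 genes were all negative, with a median of -0.57 against -0.56 over all genes. Without MC38 normoxic 4 and 7 that median was 0.08, and 4 of the 5 were positive. Among the 5, Tpsab1 and Ms4a2 passed the filter only through normoxic MC38 tumours. Their values of r in MC38 are therefore not independent of that choice.

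The eosinophil, ILC2 and Th2, regulatory T cell and fibroblast lists had the same pattern, so it was not particular to mast cells by these values. Their median r was 0.88, 0.83, 0.82 and 0.85 in E0771 and -0.61, -0.72, -0.63 and -0.67 in MC38. These medians include genes left out of the counts above, whose r is not independent of the filter. Through normoxic MC38 tumours alone passed 2 eosinophil, 6 ILC2 and Th2 and 3 regulatory T cell genes. Through normoxic E0771 tumours alone passed 1 regulatory T cell gene, Foxp3. The fibroblast list held no such gene. The 33 pathway genes had a median of 0.19 in E0771, where 19 were positive, and -0.43 in MC38.

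In MC38 the genes closest to Il1rl1 were Abcf1 at 0.87, 1 of the scaling genes, Tfrc (the transferrin receptor) at 0.87 and Gbp5 (an interferon-induced GTPase) at 0.86. Tfrc held 6296, 3179, 5019 and 4651 normalized counts in hypoxic MC38 tumours, against 2947, 2164, 4729 and 3563 in normoxic ones, with mice 4 and 7 the lowest for both genes. Tfrc was also lower in E0771 in both line comparisons, at -1.83 in hypoxic (limma adjusted p = 0.0102) and -1.25 in normoxic tumours (adjusted p = 0.0322). Within E0771, however, its r with Il1rl1 was -0.09.

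**Figure D5:**
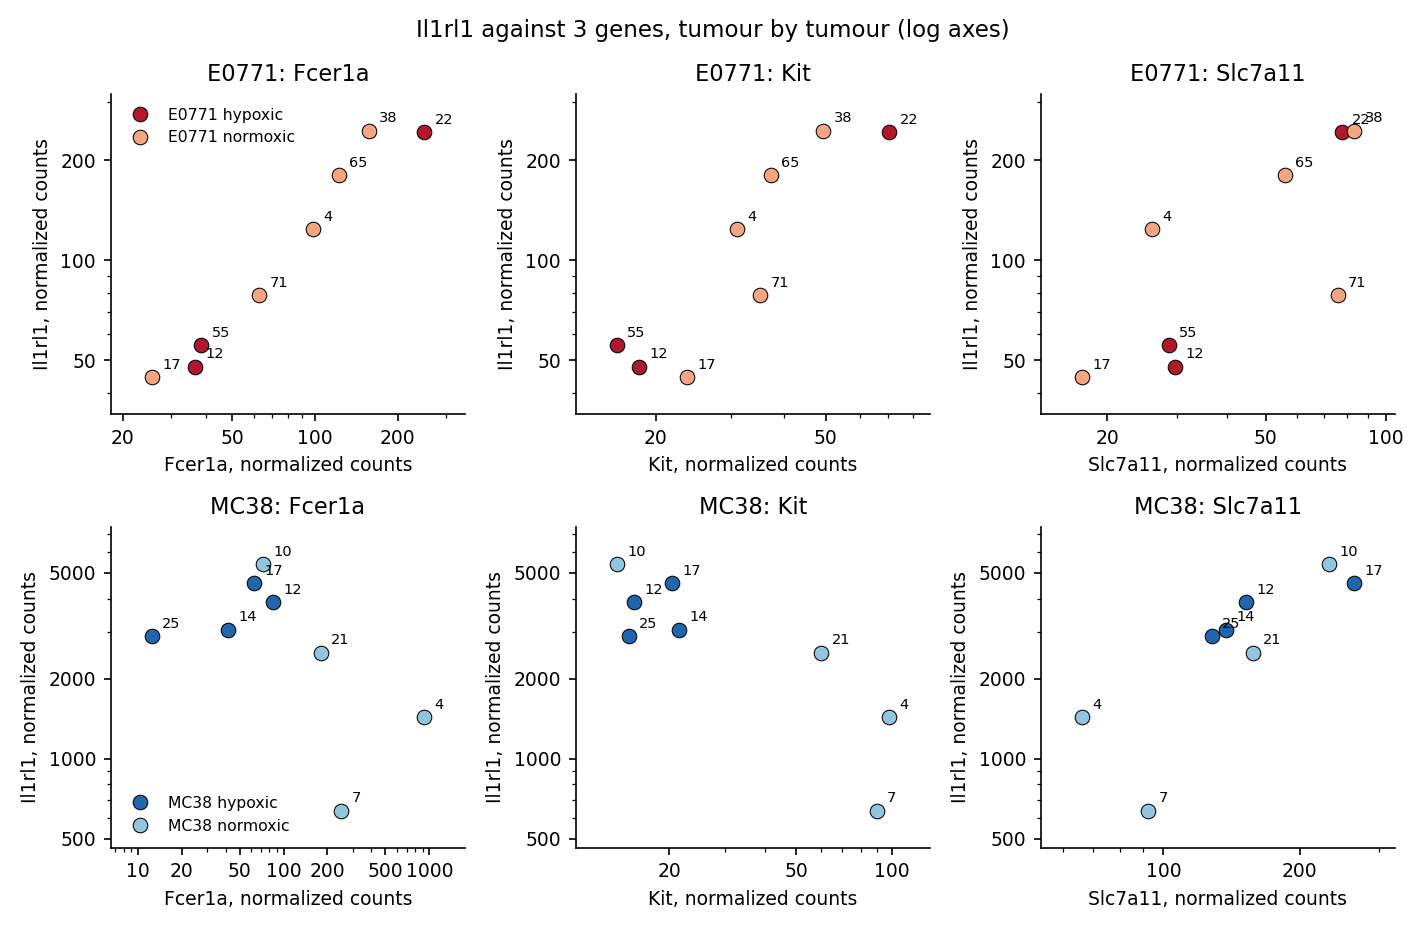
Il1rl1 against Fcer1a, Kit and Slc7a11 in normalized counts, both axes log, with E0771 tumours in the upper row and MC38 tumours in the lower row. Points are tumours with their mouse numbers, the hypoxic group in the darker shade; Fcer1a rises with Il1rl1 in E0771 (r = 0.98) and not in MC38 (r = -0.57), whereas Slc7a11 is positive in both (0.75 and 0.81).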

How the data were processed

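RNA of 16 tumours was measured on the NanoString mouse PanCancer Immune panel. The deposited values, unit signal, are normalized counts of 770 genes, 8 negative and 6 positive control probes; which software and settings the authors used was not given in the sources used here. From the values, each tumour's genes are whole counts times 1 factor set on 20 housekeeping genes, values under 1 are at 1, and control probes are unscaled. Counts before scaling were estimated from that factor for depth, shares (Wilson) and Poisson intervals, which cover counting error only.

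Log2(value + 1) was fitted with limma 3.58.1 (R 4.3.3) over the 4 groups, with eBayes trend and Benjamini-Hochberg adjustment over the 712 genes whose mean reached 24.0, the mean plus 2 SD of the scaled negative probes over all tumours; the threshold was an adjusted p of 0.05. P-values weigh a difference of group means against the spread between these tumours, estimated for each gene over all 4 groups together. No batch is named in the labels. Correlations used Python 3.11.15 with pandas 2.3.3.

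Il1rl1, the gene lists and the tests were chosen with earlier results of these data known. Genes named are the tested members of the lists that passed or that hold the roles described, the 8 most and 4 least like Il1rl1 (1 of which is not reported here), and the 3 most like it in each line; Prg2, Ccr3, Cma1, Tpsab1, Ms4a2, Il17rb, Tnfrsf4 and the genes ranked beside Il1rl1 were named after their values were seen. Promoters are from RefSeq, GRCm38.p6. The fit was tested on simulated data. Alternatives were other scalings, pseudocounts, filters, background subtraction and left-out tumours.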

Additional observations from a re-analysis of the deposited data

Results flagged for a closer look

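Among the genes set beside Il1rl1, 42 sets of tumours (1 gene in 1 group of 4 or 5) were searched for a tumour whose gap to the nearest other took up most of the group's range, by Dixon's 95% value, and 3 had one, where chance gives about 1 in 20. Cxcl1 stood at 116.8 normalized counts in E0771 normoxic 4, with the other 4 tumours at 14.9 to 42.5. Egr1 stood at 582.56 in E0771 normoxic 38, the E0771 tumour of highest Il1rl1, with the others at 23.6 to 108. Eif2b4 stood at 119.6 in MC38 normoxic 4, with the others at 178 to 185, and it is among the genes that set the scaling.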

How the results depend on the processing

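The Il1rl1 difference between hypoxic and normoxic E0771 tumours was -1.58 when scaled on the positive control probes and 0.03 when centred on each tumour's median gene. That in MC38 was 2.04 when centred, the difference of hypoxia effects was -2.62 and the line difference in hypoxic tumours -6.75 under positive-control scaling. Leaving out 1 tumour at a time gave -1.13 to 0.03 in E0771, 0.40 to 1.43 in MC38, -2.05 to -0.80 for their difference, -6.08 to -4.92 between lines in hypoxic and -4.54 to -3.51 in normoxic tumours. In these 16 fits the pathway genes called numbered 0 to 0, 1 to 9, 0 to 4, 2 to 4 and 0 to 1 in the same order of comparisons. For hypoxia in E0771, 3 pathway genes were called under positive-control scaling. For hypoxia in MC38, 8 were called when centred, 1 under positive-control scaling and 0 without the 5 tumours of fewest counts. For the lines in hypoxic tumours, 1, lower in E0771, was called under positive-control scaling, and 1 higher and 2 lower when centred (3 higher as reported). Without those 5 only E0771 hypoxic 55 remained of its group, and calls are not given. For the lines in normoxic tumours, 0 were called when centred, under positive-control scaling, with background subtracted, with a filter at a mean of 50, without those 5 and in a fit of the 2 groups alone. Centring turned Tollip to 0.22 and Tab1 to 0.27 for hypoxia in MC38, and positive-control scaling turned Tollip to -0.17 between the lines in hypoxic tumours. The likeness of Slc7a11 was 0.90 as a plain r over all 16 tumours and 0.89 under positive-control scaling. The causes of these moves were not tested. Of the named genes' other values under alternatives, 840 kept direction and side of the threshold, 100 kept direction and lost it and 1 gained it. Depth limits low genes: the mean of the negative probes, scaled, lay between 2.69 and 24.6. Background subtraction, positive-control scaling and left-out tumours for the likeness values, and counts without genes that passed the filter through 1 group, were added after seeing the data. No paired analysis was possible because the groups compared share at most 1 mouse number.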

Other observations

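Over all 16 tumours, without taking out the line means, the gene closest to Il1rl1 was Lcn2, the siderophore-binding protein lipocalin-2, with r = 0.93, followed by Cxcl1, Spp1, Msln and Klra4 at 0.92 each and the lymphatic growth factor gene Vegfc at 0.90. These r values join the 2 lines, which Il1rl1 separates without overlap, so they mainly restate the line difference, and the genes were chosen after their values were seen. Within a line the agreement was uneven. Lcn2 had r = 0.86 in E0771 and -0.49 in MC38, Vegfc 0.73 and -0.37, and Msln 0.13 and 0.78. All 6 were lower in E0771 in both line comparisons. Lcn2 differed by -2.49 in hypoxic (limma adjusted p = 0.000798) and -2.83 in normoxic tumours (adjusted p = 0.000127). Spp1 differed by -4.01 (adjusted p = 2.04e-05) and -2.91 (adjusted p = 0.000156).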
